A study of Mus musculus with 20 samples.

Results

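The 10 genes described here are the metallothioneins Mt1 and Mt2, the glutathione transferases Gsta4 and Gstm1, the glutathione synthesis subunits Gclc and Gclm, and 4 further genes named as targets of the transcription factor NRF2, namely Nqo1, Hmox1, Txnrd1 and Akr1b8. They were found by gene name among the 53380 genes of the deposited table, and all 10 were among the 17204 genes tested. They were chosen by their known pathway and by their normalized counts and differences between populations in these same libraries, so levels and differences of the 10 genes are descriptions and carry no p-value. How many of them passed the threshold used for all genes is given only beside the share or count of all genes that did, and nothing is read from it. The unit throughout is the normalized count, which is reads on a gene divided by the size factor of the library.

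RNA was sequenced from cells sorted from mouse dorsal epidermis into 5 populations, giving 20 libraries. These were CD34+ Sca1- hair follicle stem cells (HFSC, n = 4), Sca1+ Thy1- basal cells (Thy1-, n = 4), Sca1+ Thy1hi basal cells (Thy1hi, n = 4), Thy1hi cells that also carried YFP (Thy1hi YFP+, n = 3) and Thy1+ Sca1- cells, the dendritic epidermal T cells (DETC, n = 5). All groups are labelled with the genotype Thy1.2CreERT2-Rosa26-EYFP and with no treatment, whereas the study's methods describe wild-type C57BL/6J mice for these sorts and tamoxifen-induced animals for the YFP+ cells. The labelled ages do not overlap between groups, at 8 to 11 weeks for HFSC, 12 to 16 weeks for DETC, 17 to 19 weeks for Thy1hi YFP+, 20 to 23 weeks for Thy1hi and 24 to 27 weeks for Thy1-, so labelled age and population cannot be told apart. These ages rise in even steps with the order of the samples, whereas the study's methods give 8-week-old mice. Whether the labels are true ages is therefore not known. In the YFP+ cells the reporter marks cells in which a Thy1 promoter drove the inducible Cre, and their label gives them as Sca1- although the study sorted them as Sca1+. The study describes these sorts as from pooled mice in some places and gives the number of mice per population in others, and which library preparation kit made which library is not labelled.

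Metallothioneins are small cysteine-rich proteins that bind zinc and copper, and their genes are switched on by the metal-sensing factor MTF1. NRF2, encoded by Nfe2l2, is held back by KEAP1 and, when released by oxidants or electrophiles, activates genes for glutathione synthesis, detoxification and thioredoxin recycling, while BACH1 represses some of the same genes. In the epidermis this system is known for protecting keratinocytes against ultraviolet light and reactive chemicals.

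Reads on genes ran from 7781256 to 12982393 per library, and Poisson counting error is therefore small for all but the lowest genes. Summed T cell markers (Cd3d, Cd3e, Cd3g, Cd2, Cd96, Ptprc) lay between 14772 and 32331 in DETC and between 108 and 381 elsewhere, and the summed hair follicle stem cell markers (Cd34, Lgr5, Sox9, Lhx2, Tbx1) lay between 5473 and 9029 in HFSC and between 384 and 2103 elsewhere. HFSC replicate 4 stood apart from the other HFSC libraries, with 13.1% of its reads on the ribosomal RNA gene Rn45s against 38.3% to 41.5%, summed dissociation stress genes of 2572 against 52726 to 60605, and summed Langerhans cell markers of 60.3 against 2010 to 4263. In that library 8 of the 10 genes had their lowest HFSC value, so comparisons with HFSC are given with and without it. The deposited column of Thy1- replicate 4 had 3212 genes out of row order and was put back, which changed its values for 3 of the 10 genes, Mt1 (43.5 as deposited, 1969 restored), Mt2 (46.7 and 784) and Nqo1 (0 and 19.7).

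Mt1 and Mt2 are neighbours on chromosome 8. Mt2 lies at chr8:94172664-94173568 and Mt1 at chr8:94179082-94180327 in GRCm38 (mm10), both on the plus strand with 5513 bases between them. Their upstream sequences are shown because the levels of these 2 genes went together over the libraries, and that of Gclm because both motifs searched were found in it. The sequences are RefSeq promoters on GRCm38.p6, 5′ to 3′, ending at the base before the RefSeq start site, which need not be the annotated gene start, with the whole 250 bases for the metallothioneins and the last 150 bases for Gclm. Capitals mark the metal response element core (TGCACNC or TGCGCNC) and the antioxidant response element core (TGACNNNGC), each searched on both strands.
Mt1, chr8:94178839-94179088, plus strand: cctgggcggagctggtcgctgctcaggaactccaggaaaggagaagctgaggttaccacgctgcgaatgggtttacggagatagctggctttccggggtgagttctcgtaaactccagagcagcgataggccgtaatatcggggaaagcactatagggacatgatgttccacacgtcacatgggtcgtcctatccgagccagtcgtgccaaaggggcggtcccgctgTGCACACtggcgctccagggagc
Mt2, chr8:94172368-94172617, plus strand: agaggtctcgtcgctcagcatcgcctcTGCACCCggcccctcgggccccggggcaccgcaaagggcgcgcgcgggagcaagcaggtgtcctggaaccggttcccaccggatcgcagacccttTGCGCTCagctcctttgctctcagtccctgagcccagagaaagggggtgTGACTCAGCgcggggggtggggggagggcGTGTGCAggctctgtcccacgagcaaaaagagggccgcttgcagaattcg
Gclm, chr3:122245407-122245556, plus strand: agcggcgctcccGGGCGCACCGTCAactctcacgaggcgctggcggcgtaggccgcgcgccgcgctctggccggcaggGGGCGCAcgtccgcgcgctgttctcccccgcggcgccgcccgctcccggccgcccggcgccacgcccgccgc

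In the window of Mt2 the capitals hold metal response element cores starting at bases -223, -128 and -50 from the start site and an antioxidant response element core, TGACTCAGC, at base -79. A further metal core lies after the start, at base 5, for 4 in all. In its window Mt1 has 1 such core before the RefSeq start used, at base -23, and 2 after that start, at bases 3 and 21, which are not printed. The count before the start depends on which start is used. In Gclm the antioxidant core at base -134 overlaps a metal core at base -138, and a second metal core lies at base -72. Over all 32851 RefSeq promoter windows of this length (250 bases before to 50 after the start), 12.4% held the antioxidant core, 25.7% held the metal core and 0.517% held 4 or more metal cores. Windows were given for 7 of the 10 genes, 10 windows in all since some genes have several starts. Of these, 3 held the antioxidant core (Mt2, Gclm and 1 of the 3 windows of Txnrd1) and 5 the metal core (Mt1, Mt2, Gclm and both of Gstm1), while those of Nqo1 and Akr1b8 held neither. Gsta4, Hmox1 and Gclc had no window. A match is a run of letters and not a measured binding site. Sequence outside the windows was not searched, so a window without a core does not mean that the gene lacks one.

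The metallothioneins were the most abundant of the 10 genes per length. In Thy1hi cells the level per kilobase of merged exons was 1540 ± 738 (SD, n = 4) for Mt1 and 1800 ± 649 for Mt2, against 116 ± 52.9 for Gsta4, 65.8 ± 8.85 for Txnrd1 and 7.07 ± 2.85 for Gclm. The merged exons of Mt1 span its whole gene of 1246 bases as 1 block, so its level per kilobase is a low estimate.

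Mt1 had 2488, 1534.5, 815 and 2840 normalized counts in the 4 Thy1hi libraries. Its values were 1338, 958, 878 and 1969 in Thy1-, 2229, 827, 1922 and 197 in HFSC, and 1700, 846 and 1067 in Thy1hi YFP+. In DETC it had 860, 327, 669, 152 and 418. The order of the means was Thy1hi, HFSC, Thy1-, Thy1hi YFP+ and DETC, and each neighbouring pair overlapped.

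Mt2 had 1541, 918, 636 and 1134 normalized counts in Thy1hi. It had 795, 447, 530 and 784 in Thy1-, 821, 319, 761 and 99.5 in HFSC, 669, 532 and 684 in Thy1hi YFP+, and 381, 161, 258, 50.8 and 222 in DETC. The Thy1hi libraries lay above all DETC libraries, as they did for 14.4% of all genes tested, and overlapped the other 3 populations. The low HFSC value is again replicate 4.

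On the log2(value + 1) scale Mt2 was 0.70 higher in Thy1hi than in Thy1- (SE 0.56) and Mt1 was 0.50 higher (SE 0.61). Both differences are about as large as these errors, which leave out the pairing of the libraries by number, itself inferred from the data and not labelled. With the replicate number as a block in a fit of these 2 populations, the SE was 0.13 for Mt2 and 0.15 for Mt1. Against HFSC the differences were 1.42 (SE 0.56) for Mt2 and 0.91 (SE 0.61) for Mt1, and without HFSC replicate 4 they were 0.78 and 0.18. With the column of Thy1- replicate 4 in its deposited order, the differences between Thy1hi and Thy1- would read 1.71 for Mt2 and 1.87 for Mt1, so the size of the metallothionein difference depends on the row order of 1 library.

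The ratio of Mt1 to Mt2 ran from 1.28 to 3.0 over the 20 libraries with a mean of 2.12 ± 0.486 (SD, n = 20). It was 2.45 ± 0.325 in HFSC and 1.77 ± 0.52 in Thy1hi, and the populations overlapped. Of the genes tested, the one most like Mt1 over the 20 libraries was Mt2, with a Pearson r of 0.96, and the next were Btbd2 (0.948) and Rps12 (0.935). Those most like Mt2 after Mt1 were the ribosomal protein genes Rps12 (0.952) and Rpl27a (0.95). These correlations describe libraries that share populations, preparation and depth, and carry no p.

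Since ribosomal protein genes led that list, Mt1 and Mt2 were also expressed per 1000 normalized counts of 77 ribosomal protein genes, a quantity added after their values were seen. On this scale Mt2 was 5.73 ± 0.881 in Thy1hi (range 4.96 to 6.78), 3.83 ± 0.392 in Thy1- (3.28 to 4.19), 3.71 ± 0.205 in Thy1hi YFP+ (3.59 to 3.95), 2.87 ± 1.67 in HFSC (1.06 to 4.67) and 2.02 ± 0.877 in DETC (0.676 to 2.89). The lowest Thy1hi library was thus at 4.96 and the highest of the others at 4.67, but the same values prompted this scale, so the separation is a description only. Mt1 on the same scale was 10.3 ± 3.85 in Thy1hi (6.47 to 15.3) and overlapped the other populations.

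**Figure D1:**
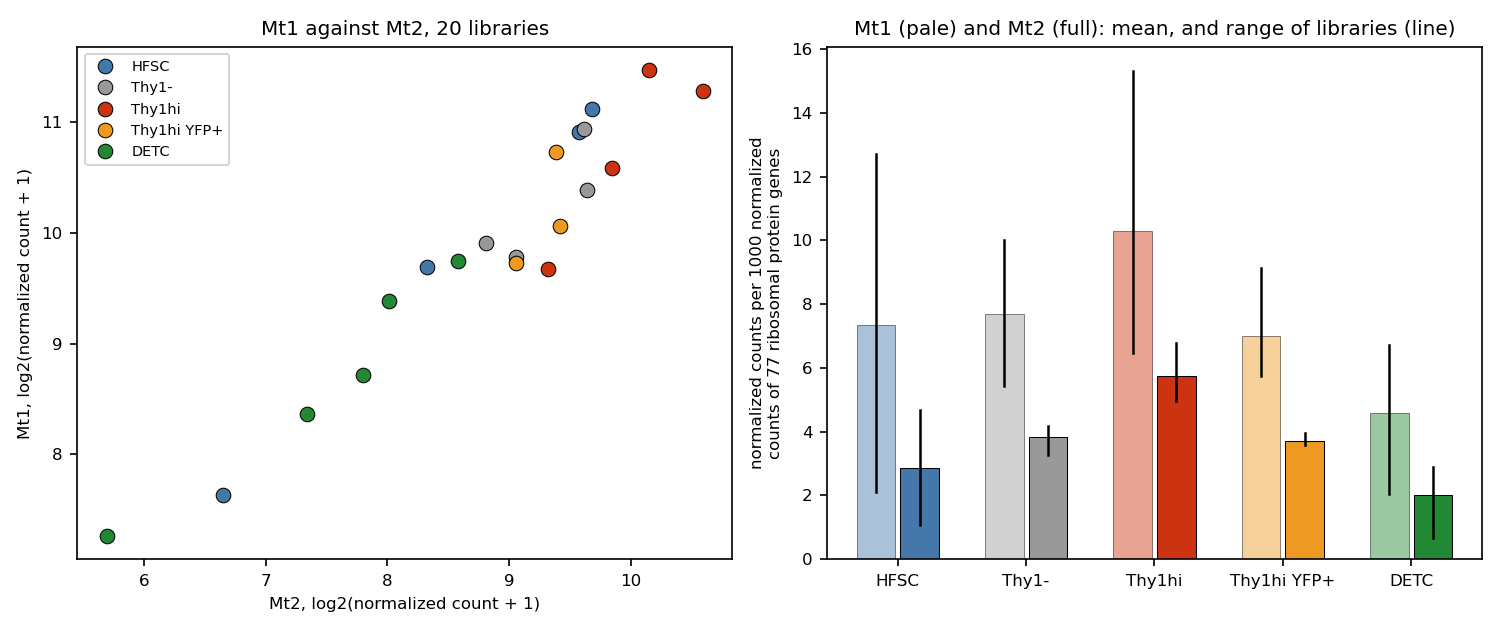
Left, Mt1 against Mt2 as log2(normalized count + 1) in each of the 20 libraries, coloured by population. Right, bars give the mean level of Mt1 (pale) and Mt2 (full colour) per 1000 normalized counts of 77 ribosomal protein genes and lines the range of the libraries. The Mt2 range of Thy1hi begins at 4.96 and that of HFSC ends at 4.67.

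Gsta4, a glutathione transferase with high activity toward the lipid peroxidation product 4-hydroxynonenal, had the widest span of the 10 genes. It lies at chr9:78182774-78209349. Its normalized counts were 1368, 920 and 870 in Thy1hi YFP+, and 197, 170, 172 and 47.5 in Thy1hi. They were 91.2, 63.6, 57.6 and 24.6 in Thy1-, 63.5, 31.5, 16.0 and 4.2 in HFSC, and 47.0, 14.2, 12.7, 17.8 and 14.4 in DETC. The 3 YFP+ libraries lay above the other 17, and the order below them was Thy1hi, Thy1-, HFSC and DETC with each neighbouring pair overlapping. How many of all genes tested had their YFP+ libraries above the other 17 was not counted, so nothing is read from this. The mean of 1052 ± 274 in Thy1hi YFP+ was 7.19 times that of Thy1hi (146 ± 67.0), 17.8 times that of Thy1- (59.3 ± 27.4) and 49.6 times that of DETC (21.2 ± 14.5).

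Akr1b8, an aldo-keto reductase that reduces reactive aldehydes, followed a like order. It lies at chr6:34354119-34368463 and had 360, 249.25 and 424 normalized counts in Thy1hi YFP+. In Thy1hi it had 106, 88.3, 92.7 and 81.5, in Thy1- 59.6, 49.8, 30.8 and 27.9, and in HFSC 46.2, 43.4, 31 and 34.3. In DETC it had 20.6, 11.2, 7.12, 0 and 9.61, and the library without a read could have held up to 3 reads by counting error alone. Thy1hi YFP+, Thy1hi, the pair of Thy1- and HFSC, and DETC were each apart from the next, and Thy1- overlapped HFSC. The share of all genes tested with such an order was not counted, so nothing is read from it. Akr1b8 was the only one of the 10 genes whose Thy1hi libraries all lay above all Thy1- libraries, as 3.59% of all genes tested did.

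The log2 difference between Thy1hi YFP+ and Thy1hi was 2.99 (SE 0.66) for Gsta4 and 1.86 (SE 0.64) for Akr1b8. All YFP+ libraries lay above all Thy1hi libraries for both, as for 4.92% of all genes tested. Against Thy1- the difference was 4.24 (SE 0.66) and 3.04 (SE 0.64). Between Thy1hi and HFSC it was 2.64 (SE 0.61) for Gsta4 and 1.24 (SE 0.59) for Akr1b8, or 1.98 and 1.19 without HFSC replicate 4. Basal keratinocyte markers summed to 148331 to 257322 in Thy1hi YFP+ and 171225 to 228574 in Thy1hi, and differentiated keratinocyte markers to 15160 to 57077 and 8330 to 26310. Summed fibroblast markers (Col1a1, Col1a2, Col3a1, Dcn, Pdgfra) lay between 44.6 and 216 in Thy1hi YFP+ and between 185 and 1932 in Thy1hi. The part of these markers in the differences was not tested. The YFP+ libraries come from animals that the study induced with tamoxifen, so strain, induction and the sort on YFP cannot be told apart from the population. For the other 8 genes the YFP+ libraries overlapped the Thy1hi libraries, with differences of -0.69 (SE 0.60) for Mt2 and -0.58 (SE 0.66) for Mt1.

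Genes most like Gsta4 over the 20 libraries were Sh2d5 (r 0.95), Has3 (0.945), which makes hyaluronan, and Mlkl (0.93). Without the 3 YFP+ libraries these were 0.926, 0.928 and 0.845. Those most like Akr1b8 were the carboxylesterase Ces2g (0.981), Tpm2 (0.961) and Mpp1 (0.957), with 0.972, 0.949 and 0.933 without the YFP+ libraries.

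Gstm1, a mu-class glutathione transferase at chr3:108012255-108017973, had no such pattern. It had 118, 98.8, 94.3 and 180 normalized counts in Thy1hi, 96.1, 119, 152 and 334 in Thy1-, and 134, 81.3 and 138 in Thy1hi YFP+. In HFSC it had 170, 240.0, 255.5 and 72.9, and in DETC 139, 79.3, 131, 110 and 114. The highest population mean was 1.61 times the lowest, the smallest span of the 10 genes, and all 5 populations overlapped their neighbours. Reads of Gstm1 may be shared with its close paralogues, which makes its level less certain. Its most alike gene was Pink1 (r 0.871).

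**Figure D2:**
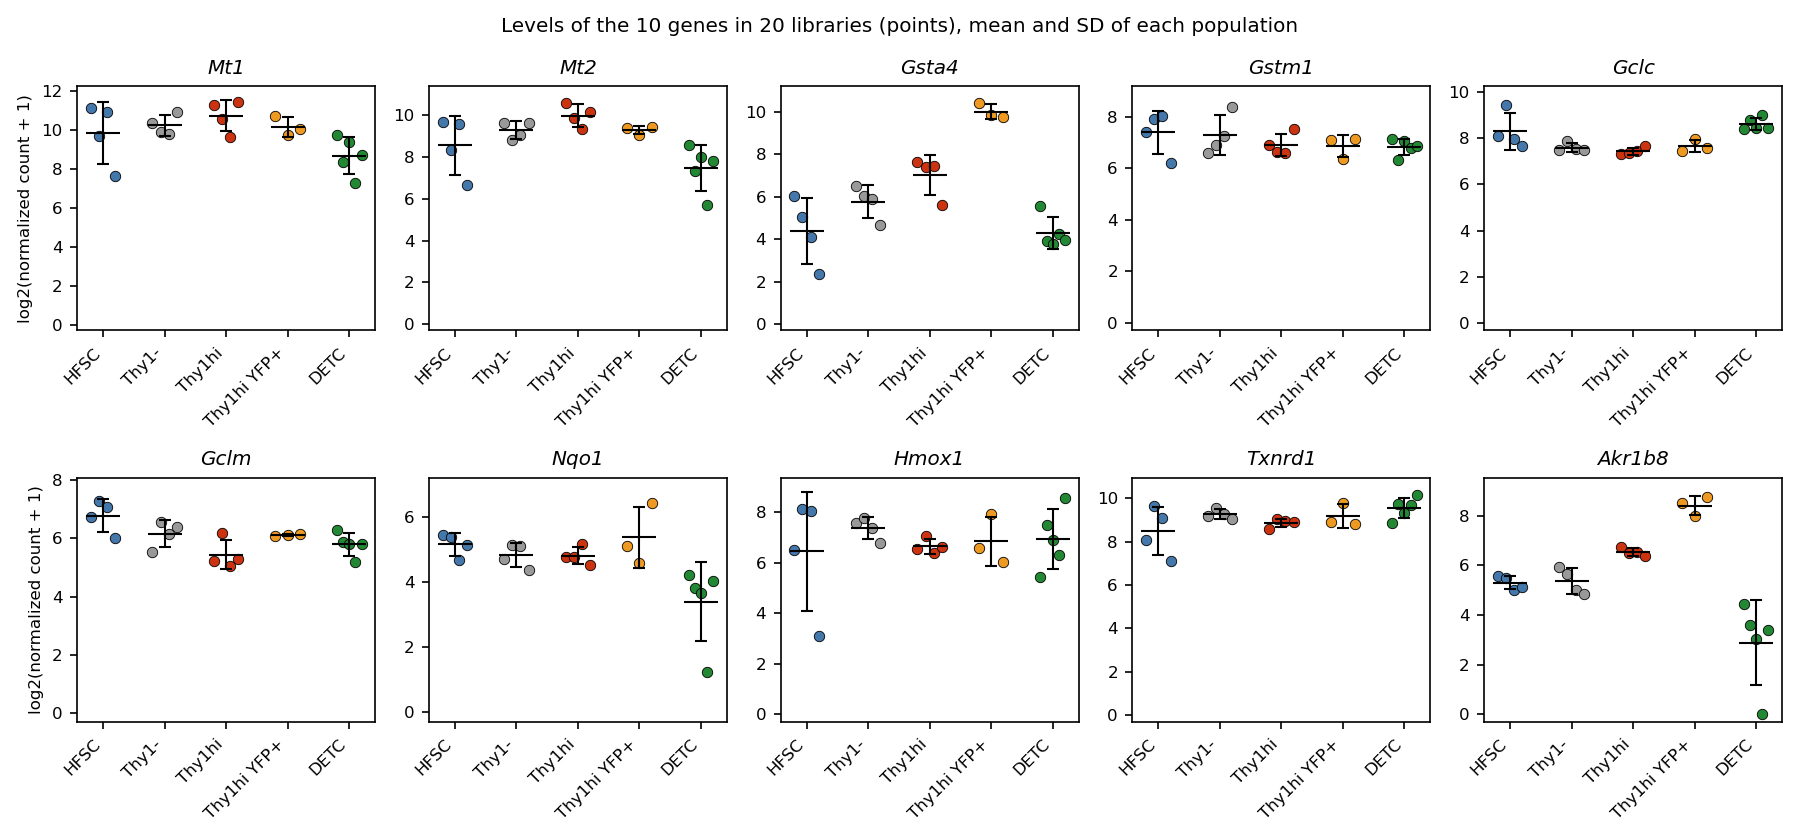
Each panel gives 1 gene, each point 1 library as log2(normalized count + 1), and bars the mean and SD of the population on that scale. Gsta4 and Akr1b8 are highest in Thy1hi YFP+, Mt1, Mt2, Nqo1 and Akr1b8 lowest in DETC, and 1 HFSC library lies far below the others for Mt1, Mt2, Gsta4 and Hmox1.

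Gclc and Gclm encode the catalytic and the modifier subunit of glutamate-cysteine ligase, the first and limiting enzyme of glutathione synthesis. Gclc (chr9:77754535-77794485) had 339, 433, 347, 512 and 349 normalized counts in DETC. It had 159, 161, 172 and 200 in Thy1hi, 180, 233, 182 and 177 in Thy1-, 172, 248 and 188 in Thy1hi YFP+, and 269, 696, 251 and 201 in HFSC. All 5 DETC libraries lay above all Thy1hi libraries, as for 18.8% of all genes tested, the mean being 2.29 times as high. The HFSC libraries also lay above Thy1hi, as for 9.81% of all genes tested, although replicate 4 exceeded the highest Thy1hi value by little.

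Gclm (chr3:122245557-122270732) had 106, 155, 134 and 63.8 normalized counts in HFSC. In Thy1- it had 45, 93.7, 70.2 and 82.8, in Thy1hi 36.4, 71.1, 32.5 and 37.8, in Thy1hi YFP+ 66.8, 68.1 and 69.4, and in DETC 77.3, 58.0, 55.3, 35.7 and 55.3. It was lowest on average in Thy1hi, at 44.5 ± 17.9, and highest in HFSC, at 115 ± 39.5, with libraries that overlapped in each neighbouring pair. Its 3 YFP+ values were unusually close, with a coefficient of variation of 1.88% against a median of 27.7% over the genes tested.

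The subunits therefore did not share 1 order. Gclc was highest in DETC, where Gclm had its next to lowest mean, and both were lowest in Thy1hi. Thy1hi minus HFSC was -0.85 (SE 0.27) for Gclc and -1.34 (SE 0.31) for Gclm on the log2 scale, and -1.06 and -1.60 without HFSC replicate 4. DETC minus Thy1hi was 1.18 (SE 0.26) for Gclc and 0.36 (SE 0.30) for Gclm. Pdlim7 (r 0.916) was the gene most like Gclc, and Sardh (r 0.842) the one most like Gclm.

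Nqo1, a quinone reductase widely used as a readout of NRF2 activity, was a low gene here. At chr8:107388225-107403206 on the minus strand, it had 26.5, 26.3, 35.0 and 22.3 normalized counts in Thy1hi, 25.5, 34.7, 33.9 and 19.7 in Thy1-, and 42.7, 41.3, 24.6 and 34.3 in HFSC. In Thy1hi YFP+ it had 33.9, 23.2 and 85.2, and in DETC 17.6, 13.2, 11.9, 1.37 and 15.6. The DETC libraries lay below all Thy1hi libraries, as for 14.4% of all genes tested. The lowest DETC value was 1 read, and the 4 keratinocyte populations overlapped. A single YFP+ library, replicate 3, raised the mean of that population to 47.4 ± 33.1.

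Hmox1, which encodes the inducible enzyme that breaks down haem, had a coefficient of variation of 83.1% in HFSC, 83.3% in DETC and 70.5% in Thy1hi YFP+, but of 20.9% in Thy1hi and 27.3% in Thy1-, where the median over the genes tested was 27.7% and 27.9%. It lies at chr8:75093621-75100589 and had 90.0, 280, 265 and 7.71 normalized counts in HFSC. In Thy1- it had 189, 219, 168 and 108, in Thy1hi 92.7, 132, 82.9 and 98.0, in Thy1hi YFP+ 96.7, 242 and 64.4, and in DETC 43.1, 179, 120, 79.6 and 383. The lowest value is again HFSC replicate 4, and all neighbouring populations overlapped. Thy1- exceeded Thy1hi in all 4 same-numbered pairs. Against HFSC the log2 difference of Thy1hi was 0.20 (SE 0.79) with all libraries and -0.91 without HFSC replicate 4, so its direction rests on that library. The genes most like Hmox1 were Lce1c (r 0.976), Lce1a2 (0.964) and Lce1m (0.956), which encode late cornified envelope proteins of terminally differentiating keratinocytes. Without HFSC replicate 4 these were 0.948, 0.94 and 0.915, and without the DETC libraries 0.978, 0.964 and 0.962. The summed differentiated keratinocyte markers (Krt1, Krt10, Krtdap, Sbsn, Lor) lay between 8330 and 26310 in Thy1hi and between 25780 and 39410 in Thy1-, and their part in the Hmox1 difference was not tested.

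Txnrd1, the cytosolic thioredoxin reductase, lies at chr10:82833951-82897712. It had 470, 842, 630, 814 and 1136 normalized counts in DETC and 378, 523, 493 and 472 in Thy1hi. It had 578, 752, 615 and 519 in Thy1-, 474, 885 and 455 in Thy1hi YFP+, and 270, 809, 547 and 137 in HFSC. All neighbouring populations overlapped. Mxd1 (r 0.886), Wipi2 (0.883) and Lce1j (0.876) were most like it. Genes are annotated over Txnrd1 and Gclm on the same strand, Eid3 for Txnrd1, which makes the levels of both less certain. Whether reads were added or lost there depends on how shared reads were counted, which is not known here. Genes on the opposite strand overlap Mt2, Gclm and Txnrd1, and without strand their reads could not be told apart. Without HFSC replicate 4 the log2 difference of Txnrd1 between Thy1hi and HFSC was -0.09, against 0.37 with it.

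**Figure D3:**
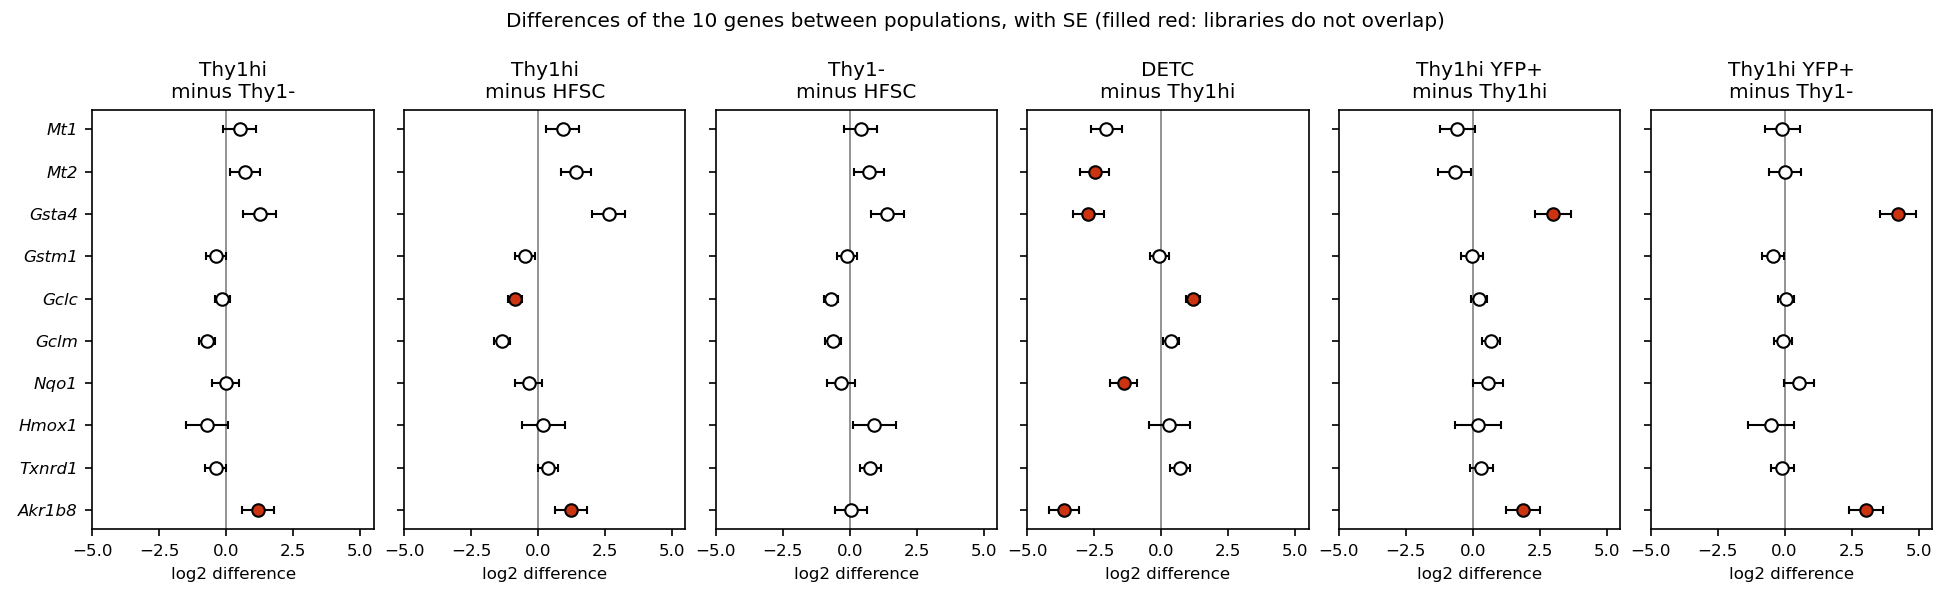
Points give the log2 difference of each of the 10 genes in each of the 6 comparisons and bars its SE from limma. Filled red points mark genes whose libraries do not overlap between the groups, such as Gsta4 (2.99) and Akr1b8 (1.86) between Thy1hi YFP+ and Thy1hi. The share of all genes tested without overlap ran from 6.77% (Thy1hi against Thy1-) to 33.2% (DETC against Thy1hi).

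The next comparisons take the populations in pairs, and the pairs share libraries of Thy1hi, Thy1- or HFSC. A gene was called where limma, fitted to all 20 libraries, gave a Benjamini-Hochberg adjusted p under 0.05 over all genes tested. The lists of other pathway genes hold 119 genes in 6 lists, of which 104 were tested. Here a lower level in a sort can mean fewer cells of a type or less RNA per cell, and the 2 cannot be told apart in bulk libraries. The labels do not say whether the libraries of a group come from separate mice, and the study gives both pooled mice and mice per population, so p-values here measure the spread between libraries.

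Thy1hi against Thy1- asks how the basal cells with Thy1 differ from those without. limma called 0.337% of all genes tested and 0 of the 10 genes, with 1 at an unadjusted p under 0.05, 0 by edgeR and 1 by DESeq2. Of all 17204 genes tested, 1242 were at an unadjusted p under 0.05, 44 were called by edgeR and 210 by DESeq2. Without 1 library the limma count over all genes, 58, ran from 13 (without Thy1- replicate 3) to 133 (without DETC replicate a), so the share of all genes is itself uncertain. The summed fibroblast markers were 1932, 969, 185 and 403 in Thy1hi replicates 1 to 4 and between 123 and 214 in Thy1-, and their part in the differences was not tested. Same-numbered Thy1hi and Thy1- libraries deviated together, so the pairs were also compared within the number. This pairing is inferred from the data, and the labels give the libraries of a pair different ages. Within the 4 pairs Gsta4 was higher in Thy1hi by 1.10, 1.40, 1.56 and 0.92 on the log2 scale, Akr1b8 by 0.82, 0.81, 1.56 and 1.52, and Mt2 by 0.95, 1.04, 0.26 and 0.53. Mt1 was higher in 3 of the 4 pairs. Hmox1, Gclm and Txnrd1 were lower in all 4, with mean differences of -0.72, -0.72 and -0.40. How many of all genes tested kept the same sign in all 4 pairs was not counted, so nothing is read from these shared signs.

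With the replicate number as a block and only these 2 populations in the fit, 6.61% of all genes were called, and 4 of the 10, Gsta4, Akr1b8 and Mt2 as higher and Hmox1 as lower in Thy1hi. Because the values of these genes took part in their choice, nothing is read from that count.

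**Figure D4:**
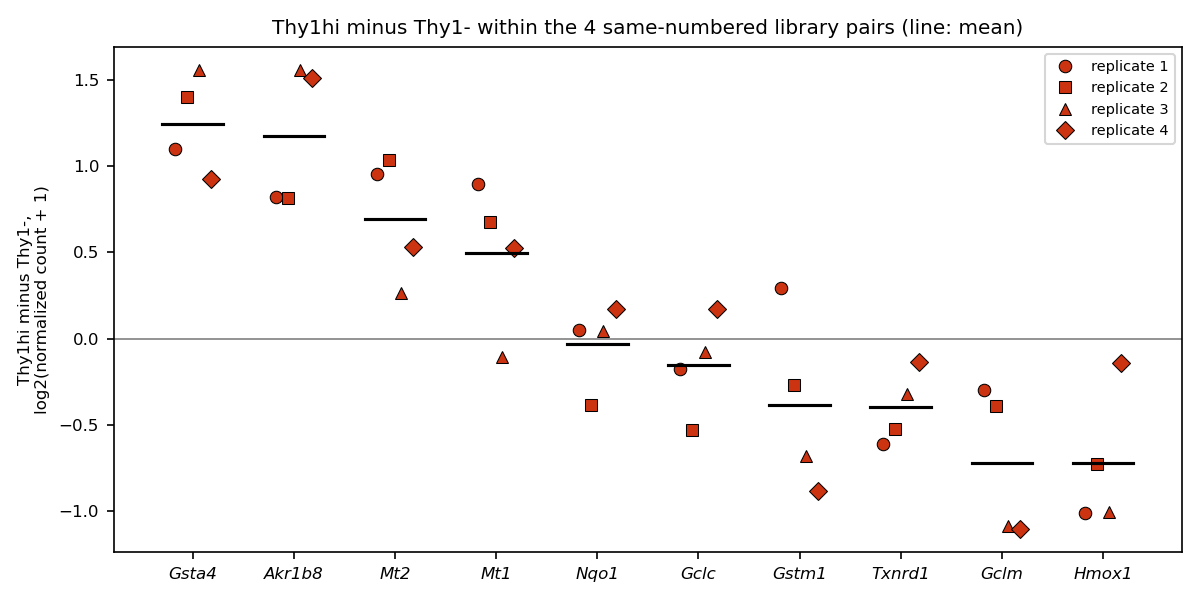
Each point is the log2 difference between the Thy1hi and the Thy1- library of the same replicate number, and each line the mean of the 4 pairs. Gsta4, Akr1b8 and Mt2 lie above 0 in all 4 pairs, and Txnrd1, Gclm and Hmox1 lie below 0 in all 4. The share of all genes tested that did so was not counted.

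Of the 104 other pathway genes 1 was called without the block, Aldh3a1, an aldehyde dehydrogenase named as an NRF2 target. It fell from 683 ± 320 in Thy1- to 187 ± 60.3 in Thy1hi, by 1.81 on the log2 scale (SE 0.37, limma adjusted p = 0.0357). That count was 0 in 9 of the 20 fits that left out 1 library, namely any Thy1- library, Thy1hi replicate 1, 2 or 3, HFSC replicate 3 or DETC replicate 2. The median difference over the 104 genes was 0.0155, against -0.0183 over all genes tested. With the block 13 were called, 4 higher and 9 lower in Thy1hi. The higher ones were the ferritin heavy chain gene Fth1 (1.004), the pentose phosphate enzyme Tkt (0.74), the glutathione reductase Gsr (0.63) and the glutathione peroxidase Gpx1 (0.56). The lower ones were Aldh3a1 (-1.81), Gstm5 (-1.53), Nfe2l3 (-1.48), Mgst1 (-1.41), the epithelial metallothionein Mt4 (-1.36) and the repressor Bach2 (-0.86). Slc39a2 (-0.99) and, from the list of other NRF2 targets, Me1 (-0.99) and Ptgr1 (-0.89) were also lower. To name the genes called with the block was decided after their values were seen. Their limma adjusted p ran from 5.44e-05 for Aldh3a1 to 0.0373 for Gpx1. Mt4 thus had the opposite sign of Mt1 and Mt2 in this comparison. Its level was low, at 16.8 ± 10.3 in Thy1hi (5 to 30 reads) and 42.4 ± 27.65 in Thy1-. Its libraries overlapped, and its call rests on the inferred pairing.

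Against HFSC, limma called 13.4% of all genes for Thy1hi and 3 of the 10 genes, Gsta4 as higher and Gclm and Gclc as lower in Thy1hi. Without DETC replicate a, which takes part only in the spread, 5 of the 10 were called, and without HFSC replicate 4 there were 3. The limma count over all genes, 2300, ran from 1549 to 2930 without 1 library and was 1975 without HFSC replicate 4. Of the 104 other pathway genes 11 were called, 5 higher and 6 lower in Thy1hi. The count was 15 without HFSC replicate 4, 20 without DETC replicate a and 17 without Thy1hi replicate 4. The median difference of the 104 was -0.0661, against 0.0245 over all genes. Those higher in Thy1hi were Slc39a6, a zinc importer (1.13, SE 0.29, adjusted p = 0.013), Akr1b3 (1.04, SE 0.24, adjusted p = 0.00504), Gsr (1.03, SE 0.19, adjusted p = 0.000727), the glutathione conjugate exporter Abcc1 (0.92, SE 0.20, adjusted p = 0.00377) and Bach1 (0.77, SE 0.17, adjusted p = 0.00331). Mgst1 (-2.62), Bach2 (-1.48), Cbr3 (-1.02), Slc39a8 (-0.90), catalase, Cat (-0.82), and Slc39a13 (-0.75) fell, with limma adjusted p from 0.00902 for Bach2 to 0.0377 for Slc39a8. Without HFSC replicate 4 the calls of Slc39a8 (-0.88, limma adjusted p = 0.0708) and Slc39a13 (-0.65, limma adjusted p = 0.0894) were lost. The other 9 passed, from -2.85 for Mgst1 to 0.96 for Akr1b3, with the limma adjusted p of Slc39a6 at 0.0494.

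Thy1- against HFSC gave 6.08% of all genes called and 0 of the 10, with 2 at an unadjusted p under 0.05, 0 by edgeR and 1 by DESeq2. Of all 17204 genes tested, 4085 were at an unadjusted p under 0.05, 1288 were called by edgeR and 2402 by DESeq2. The differences of the 10 genes ran from -0.70 for Gclc to 1.40 for Gsta4, and no gene's libraries were apart, against 13.6% of all genes tested. Without HFSC replicate 4, Gsta4 was at 0.73 and Gclc at -0.91, Mt1 went from 0.42 to -0.32, and Hmox1 went from 0.92 to -0.19. The directions of Mt1 and Hmox1 thus rest on that library. Other pathway genes called were 2 of 104, Abcc1 (higher in Thy1-, 1.04, SE 0.20, limma adjusted p = 0.0033) and the zinc transporter Slc39a13 (-1.24, SE 0.23, limma adjusted p = 0.0025). Without HFSC replicate 4 both kept their call, at 0.98 (limma adjusted p = 0.00986) for Abcc1 and -1.14 (limma adjusted p = 0.00925) for Slc39a13. The count was 10 without Thy1- replicate 4, 9 without DETC replicate a, 7 without HFSC replicate 4, and 5 without DETC replicate b or without Thy1hi YFP+ replicate 3. The medians were 0.0293 over the 104 genes and 0.0385 over all genes.

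DETC against Thy1hi compares the T cells of the epidermis with the basal keratinocytes that share the Thy1 surface marker. limma called 36.6% of all genes tested and 6 of the 10, Akr1b8, Gsta4, Mt2, Mt1 and Nqo1 as lower and Gclc as higher in DETC. The log2 differences were -3.64 (SE 0.56) for Akr1b8, -2.73 (SE 0.58) for Gsta4, -2.49 (SE 0.53) for Mt2, -2.06 (SE 0.58) for Mt1 and -1.41 (SE 0.49) for Nqo1. Without DETC replicate a they were -2.92, -2.71, -2.04, -1.70 and -0.87. That library had the lowest basal keratinocyte markers of the DETC libraries, with a sum of 9972 against 33571 to 46131, and the lowest Mt1, Mt2, Nqo1, Gclm and Akr1b8. In Thy1hi the same 5 markers (Krt5, Krt14, Itga6, Itgb4, Col17a1) summed to 171225 to 228574, so keratinocyte RNA was present in the DETC libraries, and its part in the values of the 10 genes there was not tested. The 77 ribosomal protein genes had a median difference of -0.83, and 121 genes with under 700 exon bases one of -0.68, and their part in the metallothionein difference was not tested.

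In the same comparison 50 of the 104 other pathway genes were called, 21 higher and 29 lower in DETC, a share of 48.1% beside the 36.6% over all genes. The median difference of the 104 was -0.173, against -0.00441 over all genes. Among regulators, Nfe2l2 rose in DETC (0.65, SE 0.22, limma adjusted p = 0.0214), Sqstm1 (1.19), which sequesters KEAP1, and Bach2 (2.44) rose, and Bach1 fell (-1.01, SE 0.16, limma adjusted p = 3.24e-05), as did Nfe2l1 (-0.52) and the ubiquitin ligase subunit Rbx1 (-0.53). Keap1 had 192 ± 42.8 in DETC and 219 ± 39.5 in Thy1hi (-0.20, SE 0.23, limma adjusted p = 0.548). The metal sensor gene Mtf1 was lower in DETC (-0.91, SE 0.18, limma adjusted p = 0.000321), and its part in the metallothionein difference was not tested.

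Of the list of metallothioneins and zinc transport, which also holds Mt4 and Mtf1, 10 of 20 were called, 4 higher and 6 lower. Slc39a4, with 47.8 ± 14.4 in DETC and 0.688 ± 0.918 in Thy1hi, Slc39a14 (2.99) and Slc30a9 (1.07) rose, and Slc39a1 (-1.22) and Slc39a10 (-0.88) fell. Of the glutathione list 13 of 18 were called, 5 higher and 8 lower. Glutaredoxin, Glrx (3.795), Ggt5 (3.57), which cleaves glutathione conjugates outside the cell, and the amino acid transporter subunit Slc3a2 (0.90) rose. Gpx1 (-1.77), Oplah (-1.28), Ggct (-1.13) and Gsr (-0.85) fell. Gss, the second enzyme of glutathione synthesis, had 71.3 ± 13.2 in DETC and 106 ± 19.7 in Thy1hi (limma adjusted p = 0.0659), and the cystine importer Slc7a11 had 30.8 ± 16.4 and 40.9 ± 21.4 (limma adjusted p = 0.629).

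Of the other glutathione transferases 10 of 16 were called, 4 higher and 6 lower. Gstp3 rose from 2.07 ± 1.88 in Thy1hi to 43.1 ± 8.92 in DETC, while Gstm4 (-2.29), Gstm2 (-2.13) and Mgst3 (-1.93) fell. Near-identical Gstp and Gstm copies make the split between members uncertain. Of the other NRF2 targets 8 of 24 were called, 4 higher and 4 lower. Fth1 (2.15), the ferritin light chain gene Ftl1 (1.73) and the carbonyl reductase Cbr1 (1.48) rose, and Tkt (-1.38), the epoxide hydrolase Ephx1 (-1.27) and Abcc1 (-0.98) fell. Of the thioredoxin and antioxidant enzymes 3 of 13 were called, with Sod1 higher (1.78) and Prdx2 lower (-1.33) among libraries that did not overlap. All of these calls had a limma adjusted p under the threshold of 0.05.

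Thy1hi YFP+ against Thy1hi compares cells in which the Thy1 reporter was active with the Thy1hi population. limma called 0.0116% of all genes tested and 0 of the 10, with 2 at an unadjusted p under 0.05, 0 by edgeR and 2 by DESeq2. Of all 17204 genes tested, 1561 were at an unadjusted p under 0.05, 2 were called by edgeR and 102 by DESeq2. Without HFSC replicate 4 or without DETC replicate a, 1 of the 10 was called. The limma count over all genes, 2, ran from 0 to 23 without 1 library. The libraries of Gsta4 and Akr1b8 were apart nevertheless, as they were for 10.5% of all genes tested. None of the 104 other pathway genes was called (0 by limma and by edgeR, 3 by DESeq2, 20 at an unadjusted p under 0.05). Leaving out HFSC replicate 4 or DETC replicate a gave 1. Sulfiredoxin, Srxn1, a target of NRF2 that repairs peroxiredoxins, had 118 ± 19.0 in Thy1hi YFP+ and 56.2 ± 6.71 in Thy1hi (1.05, SE 0.45, limma adjusted p = 0.505). The median difference of the 104 was 0.0785, against -0.0382 over all genes. By list it was 0.408 for the thioredoxin and antioxidant enzymes, 0.314 for the other NRF2 targets and 0.244 for the other glutathione transferases. It was 0.0858 for metallothioneins and zinc transport, -0.0703 for the glutathione list and -0.207 for NRF2 and its regulators.

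Against Thy1-, limma called 0.761% of all genes for Thy1hi YFP+ and 2 of the 10, Gsta4 and Akr1b8. The count over all genes, 131, ran from 10 without Thy1hi YFP+ replicate 3 to 344 without HFSC replicate 4. Without any 1 of the Thy1- libraries, or without Thy1hi YFP+ replicate 1 or 3, 1 of the 10 was called. Of the 104 other pathway genes 2 were called, and this count was 5 without HFSC replicate 4 and 0 without any 1 of the Thy1- libraries, Thy1hi YFP+ replicate 1 or 3, or DETC replicate 3. It was 1 without HFSC replicate 3, DETC replicate 1, 2 or b, or Thy1hi replicate 1 or 3. G6pdx, the entry enzyme of the pentose phosphate pathway, rose from 105 ± 16.3 to 224 ± 14.7 (1.10, SE 0.25, limma adjusted p = 0.0433), and Ggt5 fell from 13.9 ± 3.20 to 2.28 ± 1.46 (-2.25, SE 0.48, limma adjusted p = 0.033). Nfe2l2 had 516 ± 38.5 in Thy1hi YFP+ and 577 ± 52.1 in Thy1- (-0.16, SE 0.25, limma adjusted p = 0.829), and Keap1 221 ± 22.5 and 161 ± 51.9 (0.51, SE 0.26, limma adjusted p = 0.411).

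**Figure D5:**
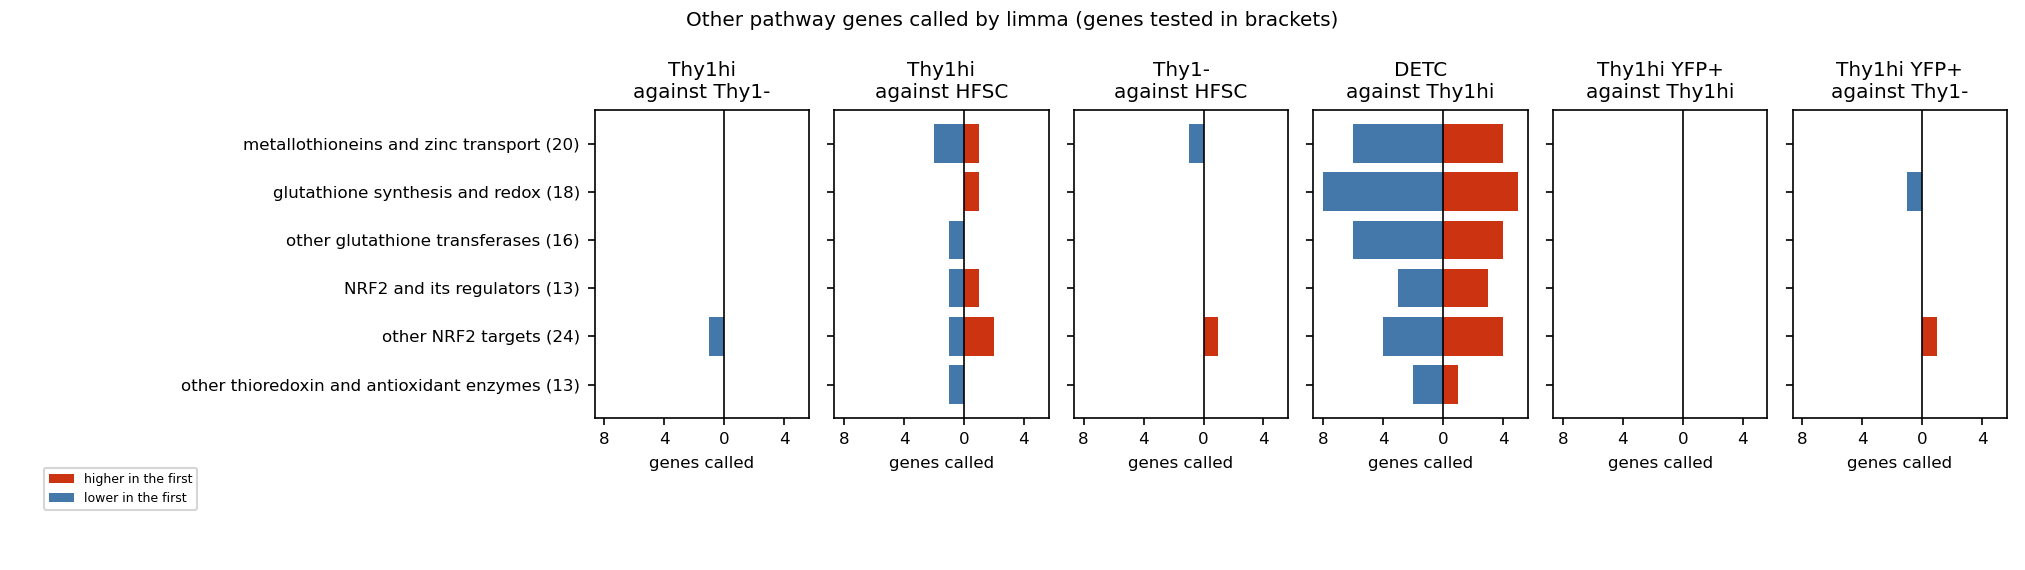
Bars give, for each list of other pathway genes and each comparison, how many of the tested genes (in brackets) limma called as higher (red, right) or lower (blue, left) in the first population. DETC against Thy1hi holds 50 of the calls, with 8 lower and 5 higher genes in the glutathione list.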

How the data were processed

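Libraries were made from total RNA of 5 sorted populations. Per the labels and the processing notes of the submitters, reads were aligned with STAR to mm10 and counted on genes with featureCounts, and the authors scaled the counts with DESeq2. The deposited values are this normalized signal, the reads on a gene divided by the size factor of its library, for 53380 genes in 20 libraries, and replicates were not pooled in the table. The strand setting of the counting is not given in the sources used here. The value of 1 read was estimated per column, and all values (100%) were whole multiples of it within rounding, with size factors from 0.729 to 1.43. No column of per-sample values was left unused (0). The columns of 2 DETC libraries carry numbers that match no label, so these were used as unnumbered replicates a and b.

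In the column of Thy1- replicate 4, 3212 genes were out of row order. They were put back, and at those of them that were tested the correlation to the rest of the Thy1- group went from 0.0563 to 0.935. Names and positions were matched to GENCODE M21 on GRCm38 for 53274 rows, of which 51298 had the same position. Promoter sequences and starts are from RefSeq on GRCm38.p6.

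A gene needed 10 or more normalized counts in 3 or more libraries to be tested, which left 17204. The test was made on log2(value + 1), with a pseudocount of 1, which understates differences of low genes. All 20 libraries entered 1 two-sided limma fit (3.58.1, R 4.3.3; eBayes with a trend) with 1 mean per population, and p-values were adjusted over all genes tested. edgeR (4.0.16, quasi-likelihood) and DESeq2 (1.42.0) on the recovered reads, other pseudocounts (0.1 and 10), filters, scalings, the replicate block and fits without 1 library were alternatives. The scripts were tested on simulated data. Tables and plots were made with pandas 2.3.3, numpy 2.4.6 and matplotlib 3.10.9 in Python 3.11.15.

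Same-numbered Thy1hi and Thy1- libraries deviated together from their population means (r from 0.293 to 0.716 over 4 pairs, against -0.651 to 0.514 over the 12 other combinations), so their numbers were taken to pair them. In the other comparisons they were not (for example r from -0.232 to 0.162 for Thy1hi and HFSC). The pairing is inferred and not labelled. Thy1hi replicate 2 with Thy1- replicate 1 (r 0.514) exceeded the same-numbered pairs of replicate 1 (0.293) and replicate 3 (0.301). The labels also give same-numbered Thy1hi and Thy1- libraries different ages. All results with the replicate block for these 2 populations rest on this pairing.

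The 10 genes and the lists were chosen with earlier results of these data known. Other pathway genes were named where limma called them and their libraries did not overlap, at most the 3 largest rises and 3 largest falls per list and comparison. Nfe2l2, Keap1, Bach1, Mtf1, Gsr, Gss, Slc7a11 and Srxn1 were to be named in any case, but they are not given for every comparison. In Thy1hi against Thy1- only Gsr is named, and in Thy1- against HFSC none. Srxn1, given above only for Thy1hi YFP+ against Thy1hi, was at -0.57 in Thy1hi against Thy1- with the replicate block (limma adjusted p = 0.1). The genes most alike were the 3 with the highest Pearson r on the log2 scale. Reads were counted without molecular identifiers, so the limit of 3 reads for a count of 0 covers counting error only.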

Additional observations from a re-analysis of the deposited data

Results flagged for a closer look

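In 4 of the 40 groups of 4 or 5 libraries examined, the highest library lay farther from the nearest of the others, relative to the range of the group, than Dixon's 95% critical value. Chance flags about 1 in 20 groups. Gsta4 had 46.96 normalized counts in DETC replicate 1, where the nearest DETC library had 17.84, a gap of 0.849 of the range. Gclc had 696.18 in HFSC replicate 2, where the nearest had 268.95 (0.863 of the range), and 232.56 in Thy1- replicate 2, where the nearest had 182.21 (0.907). Gclm had 71.13 in Thy1hi replicate 2, where the nearest had 37.84 (0.862).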

How the results depend on the processing

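The counts of other pathway genes called are given by comparison. For Thy1hi against Thy1- (1 called), the replicate block in a fit of these 2 populations gave 13, DESeq2 gave 2, and leaving out replicate 4 of both, or these and HFSC replicate 4, gave 0. Leaving out 1 library gave 0 to 1. For Thy1hi against HFSC (11), the replicate block over all populations gave 23, leaving out replicate 4 of Thy1hi and Thy1- gave 19, leaving out HFSC replicate 4 as well gave 21, DESeq2 gave 20, and leaving out 1 library gave 8 to 20. For Thy1- against HFSC (2), a pseudocount of 10, a mean of at least 50 and a rescaling each gave 7, quantile normalization gave 6, a fit of only these 2 populations gave 4, and the replicate block over all populations gave 16. There the fits without replicate 4 of Thy1hi and Thy1-, and without HFSC replicate 4 as well, gave 11 and 15, edgeR gave 8, DESeq2 gave 14, and leaving out 1 library gave 2 to 10. For DETC against Thy1hi (50), leaving out 1 library gave 40 to 56 and no setting moved the count by over 1.5 times. For Thy1hi YFP+ against Thy1hi (0), a pseudocount of 10 gave 1. The replicate block gave 2 over all populations and 0 in a fit of only these 2. The fit without replicate 4 of HFSC, Thy1hi and Thy1- gave 3, DESeq2 gave 3, and leaving out 1 library gave 0 to 1. For Thy1hi YFP+ against Thy1- (2), a pseudocount of 10, a mean of at least 50, the rescaling, quantile normalization, the fit of 2 populations and the deposited row order each gave 1. No filter, and leaving out replicate 4 of Thy1hi and Thy1-, gave 0, and leaving out HFSC replicate 4 as well gave 6. The replicate block gave 4 over all populations and 2 in a fit of only these 2. DESeq2 gave 6, and leaving out 1 library gave 0 to 5. The fits without HFSC replicate 4 and both other replicates 4 were chosen after seeing the data. The cause of these changes was not tested.

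Of the 60 differences of the 10 genes, 42 kept their sign under all 34 settings. Of 2034 values under an alternative, 12 moved by at least the spread between replicates, 9 of them with the deposited row order, which touches Mt1, Mt2 and Nqo1. The others were Gstm1 without the 3 replicates 4 (-1.07 for Thy1hi and -0.85 for Thy1-, each against HFSC) and Akr1b8 with a pseudocount of 10 (-2.46, DETC against Thy1hi). Nqo1 has no value with a mean of at least 50. Over all genes tested, Thy1hi against Thy1- gave 58 called by limma and 210 by DESeq2. With the replicate block it gave 1137 in a fit of only these 2 populations and 216 over all populations.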
